A study of Homo sapiens with 4 samples.

Results

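The genes described here are MDM2, MDM4 and 7 genes that p53 is known to activate: CDKN1A, PLK2, SESN1, RRM2B, ZMAT3, TP53I3 and TP53INP1. They were taken by symbol, with no threshold on their values, and are 9 of the 57905 genes in the files. RNA was sequenced from A549, a line derived from a human lung adenocarcinoma and kept here in DMEM with serum. There were 2 libraries of cells given 0.6 µM GMI for 24 h and 2 control libraries of the same time point, whose control treatment is not described further. GMI is a small fungal protein with immunomodulatory activity, from Ganoderma microsporum. The design gives a single comparison, GMI against control, made to profile differentially expressed genes, in cells known to carry wild-type p53.

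p53 is a transcription factor that is kept low by MDM2, an E3 ubiquitin ligase which binds it and sends it to the proteasome, and is held inactive by MDM4, a relative of MDM2 that covers its activation domain. DNA damage and other stresses free p53, which then turns on genes of cell cycle arrest, DNA repair, metabolism and cell death. MDM2 is itself such a gene, so that p53 feeds back on its own removal, and CDKN1A, which encodes the cyclin-dependent kinase inhibitor p21, is the best known arrest gene among them.

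The sequences below are the 250 bases before the annotated starts of 4 of these genes. They are shown because they carry, or lack, matches to the p53 consensus within that stretch. They are RefSeq sequences on GRCh38.p14, whereas the files were made on GRCh37. Capitals mark matches to the p53 consensus, either 2 half-sites back to back with at most 3 of 20 letters off, or a single half-site of 10 letters with none off. The consensus reads the same on both strands. MDM2 has an upstream start and a downstream one in its first intron, and the downstream promoter is the one known to answer to p53. The stretches lie at chr12:68807922-68808171 and chr12:68808767-68809016 on the plus strand for MDM2, at chr6:109008989-109009238 on the minus strand for a downstream start of SESN1, at chr5:58460087-58460336 on the minus strand for PLK2 and at chr2:24084835-24085084 on the minus strand for TP53I3.
MDM2 upstream start: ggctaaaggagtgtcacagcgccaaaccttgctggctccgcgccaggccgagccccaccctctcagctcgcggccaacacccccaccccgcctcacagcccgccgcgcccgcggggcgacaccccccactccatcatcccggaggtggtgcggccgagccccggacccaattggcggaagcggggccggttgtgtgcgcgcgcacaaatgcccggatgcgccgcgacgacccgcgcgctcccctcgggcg
MDM2 downstream start: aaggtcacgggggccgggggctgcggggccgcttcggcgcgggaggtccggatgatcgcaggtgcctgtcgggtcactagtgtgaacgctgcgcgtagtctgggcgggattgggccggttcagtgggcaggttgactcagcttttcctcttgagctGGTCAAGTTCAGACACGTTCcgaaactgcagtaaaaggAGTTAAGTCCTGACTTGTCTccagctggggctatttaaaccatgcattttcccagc
SESN1 downstream start: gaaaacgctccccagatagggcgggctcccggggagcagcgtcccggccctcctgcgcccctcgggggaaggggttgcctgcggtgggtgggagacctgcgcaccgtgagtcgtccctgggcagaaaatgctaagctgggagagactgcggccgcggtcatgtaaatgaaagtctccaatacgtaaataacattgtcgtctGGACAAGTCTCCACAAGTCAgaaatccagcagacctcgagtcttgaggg
PLK2: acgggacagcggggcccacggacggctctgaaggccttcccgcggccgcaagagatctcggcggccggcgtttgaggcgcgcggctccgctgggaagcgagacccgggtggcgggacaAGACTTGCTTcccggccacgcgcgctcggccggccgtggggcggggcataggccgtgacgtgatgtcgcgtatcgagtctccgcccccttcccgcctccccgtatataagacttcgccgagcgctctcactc
TP53I3: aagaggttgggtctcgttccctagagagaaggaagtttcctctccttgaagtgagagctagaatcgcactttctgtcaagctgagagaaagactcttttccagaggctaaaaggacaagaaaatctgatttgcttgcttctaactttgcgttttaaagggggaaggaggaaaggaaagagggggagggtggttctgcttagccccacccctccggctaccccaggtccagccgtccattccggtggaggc

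The downstream MDM2 start held 2 paired sites, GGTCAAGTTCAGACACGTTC at chr12:68808923-68808942 with 2 letters off the consensus and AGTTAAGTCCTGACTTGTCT at chr12:68808961-68808980 with 3 letters off. The SESN1 window held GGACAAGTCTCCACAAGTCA at chr6:109009018-109009037 with 3 letters off. PLK2 held a single half-site. Over 35093 windows of this length in the table, 4.37% held a paired site and 5.58% a half-site without mismatch. Among 13 windows of 7 of the genes, 3 held a pair, of which 2 were the overlapping windows of neighbouring MDM2 starts, and 2 held a half-site. A match is a description of the letters and not a measured binding site, and p53 sites of CDKN1A are known to lie farther upstream than this window reaches. A window without a match, such as that of TP53I3, does not show that the gene lacks a p53 site, since bases beyond the window and other motifs were not searched. The files sum over all transcripts of a gene, so RNA from the upstream and the downstream MDM2 start cannot be told apart.

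All 4 libraries were alike in depth. Library denominators read from the steps in FPKM (fragments per gene length and library size, the deposited unit) lay between 20560000 and 24090000 fragments. Across genes, which are not independent replicates, log2(FPKM + 1) correlated at 0.9946 between the controls and at 0.992 between the GMI libraries. KRT8 and KRT18, keratins of simple epithelia, and ALDH1A1 and AKR1B10, enzymes abundant in A549, had 546 FPKM at the lowest in any library. The epithelial adhesion gene EPCAM stayed at 0.35 FPKM or less. Low too were KRT19, with 0.96 and 0.88 FPKM in the GMI libraries against 0.44 and 0.36 FPKM in the controls, and CDH1. CDH1 had 2.55 and 2.35 FPKM after GMI, against 2.16 and 1.96 FPKM. Levels of the epithelial markers were not all equal between groups: ALDH1A1 had 1067 and 1091 FPKM in the GMI libraries, against 1848 and 1842 FPKM in the controls (log2 fold change -0.77, limma adjusted p = 0.00104). KRT18 fell too (-0.26, limma adjusted p = 0.0339), a call lost without any 1 of the libraries, and AKR1C1, which has near-identical paralogs, rose (0.56, limma adjusted p = 0.00539), a call lost without either control. The part of these changes in the results below was not tested. Of 10 markers of immune, stromal and endothelial cells found in the files, at most 1 reached 1 FPKM in a library. CDKN2A, whose alternative product ARF restrains MDM2 and whose locus A549 is known to have lost, was listed at 0 in all 4 libraries.

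**Figure D1:**
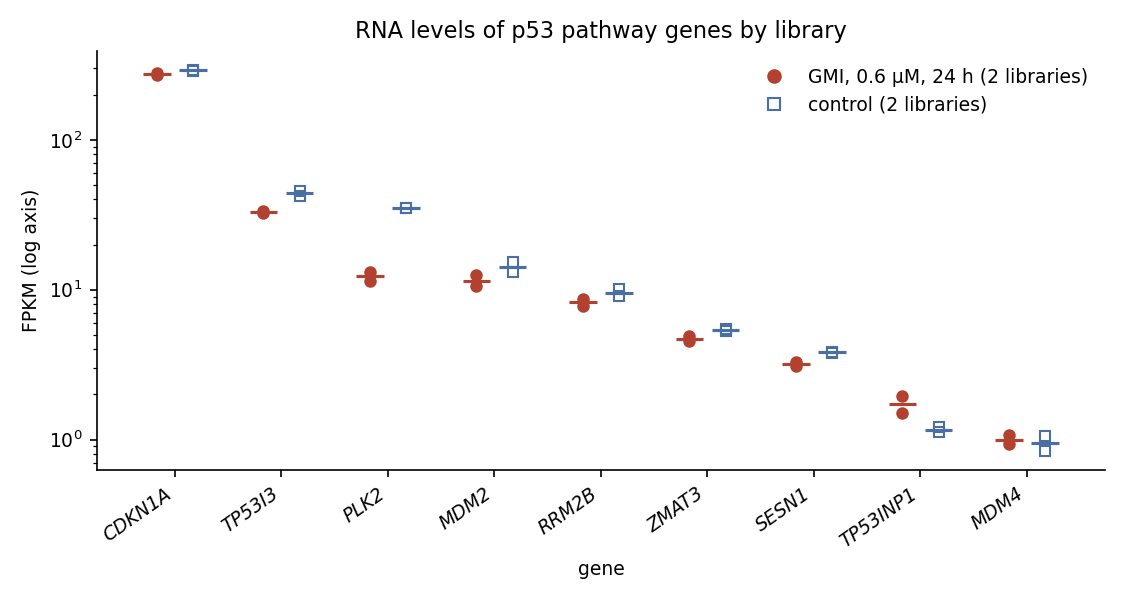
FPKM of each gene on a log axis, with GMI libraries as filled circles, control libraries as open squares and short lines at the means of 2 libraries. CDKN1A stood far above the other genes in both groups, PLK2 shows the widest gap between groups, and MDM4 is the only gene here whose groups overlap.

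After GMI, PLK2 and TP53I3 fell and 0 of the 9 genes rose, while CDKN1A and MDM2 were not called different. The test was limma, fitted over the 11598 genes with at least 1 FPKM in 2 libraries, at an adjusted p of 0.05. The 2 of 9 that fell and the 0 that rose compare with 6.12% of all tested genes that fell and 9.30% that rose, or 1789 genes and 15.4% together. At an unadjusted limma p under 0.05, 4 of the 9 genes were lower (PLK2, TP53I3, MDM2 and SESN1) and 1 was higher (TP53INP1), against 15.0% of all tested genes lower and 17.2% higher at that level. All 9 genes passed the filter. Both GMI libraries lay below both controls in 7 of the 9, against 30.4% of all tested genes, and above both controls in 1 of the 9, TP53INP1, against 29.8%. The median log2 fold change of the 9 genes was -0.19, against -0.01 over all tested genes. With RNA from whole cultures, a change in the share of cells that express a gene and a change in RNA per cell cannot be told apart.

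CDKN1A (ENSG00000124762) was by far the most abundant of these transcripts. It had 278 and 270.0 FPKM in the GMI libraries, against 293 and 287 FPKM in the controls. The GMI libraries were both lower, by little, and the difference did not pass the test (log2 fold change -0.08, 95% interval -0.21 to 0.05, limma adjusted p = 0.358). By rank, CDKN1A was gene 152 and 162 in the GMI libraries and gene 143 and 138 in the controls. It made up 78.7% and 78.0% of the summed FPKM of the 9 genes after GMI, against 72.0% and 71.5% in the controls. The sum itself was smaller after GMI, at 354 and 346 FPKM against 407 and 401 FPKM, so the higher share is no rise of CDKN1A.

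The order of levels below CDKN1A was TP53I3, PLK2, MDM2, RRM2B, ZMAT3, SESN1, TP53INP1 and MDM4 by control means, spanning 290.1 ± 4.16 FPKM for CDKN1A to 0.945 ± 0.148 FPKM for MDM4 (SD, n = 2). In the controls, no neighbours in this order overlapped. After GMI the values of PLK2 and MDM2 interleaved, and no other neighbours overlapped. PLK2 stood at 1.25 and 0.920 times the MDM2 level per length in the GMI libraries, against 2.69 and 2.28 times in the controls.

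MDM2 (ENSG00000135679), the ligase that ends p53 activity, had 10.53 and 12.45 FPKM in the GMI libraries, against 13.14 and 15.35 FPKM in the controls. Both GMI values were lower than both control values, and replicate 2 exceeded replicate 1 by 0.22 in the GMI group and by 0.21 in the controls on the log2(FPKM + 1) scale. The log2 fold change of -0.29 did not pass (95% interval -0.54 to -0.04, limma adjusted p = 0.112). A fit to approximate fragment numbers with voom, chosen after seeing the data, called it lower (adjusted p = 0.0204), and so did a limma fit with the replicate number as a block (adjusted p = 0.0366), although nothing shows that the numbers pair the libraries.

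MDM4 had 0.93 and 1.07 FPKM in the GMI libraries, against 0.84 and 1.05 FPKM in the controls, and the groups overlapped. Its log2 fold change was 0.04 with a 95% interval of -0.24 to 0.32 (limma adjusted p = 0.843), so shifts of that size in either direction were not detectable. Its values rest on roughly 190 to 278 fragments per library. Per length, MDM2 exceeded MDM4 by 11.3 and 11.6 times in the GMI libraries and by 15.6 and 14.6 times in the controls, a description with no test.

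**Figure D2:**
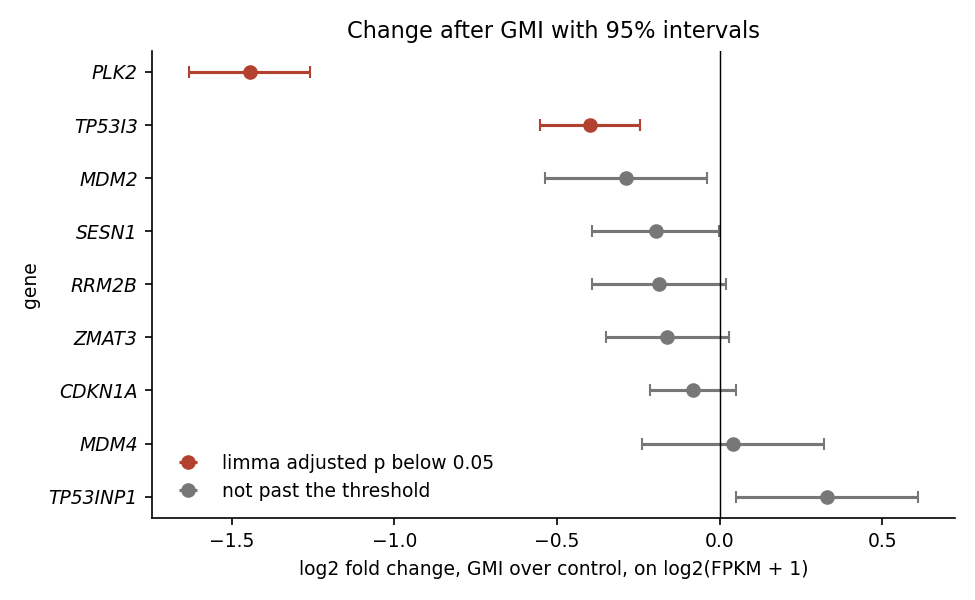
Change of each gene after GMI relative to control, in units of log2(FPKM + 1), with 95% intervals from limma over 2 libraries a group. PLK2 at -1.44 and TP53I3 at -0.40 passed an adjusted p of 0.05, and the interval of CDKN1A spans -0.21 to 0.05.

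PLK2 (ENSG00000145632), a polo-like kinase that p53 induces and that acts at centrioles and in the stress response, fell the most. It had 13.18 and 11.46 FPKM in the GMI libraries, against 35.32 and 35.04 FPKM in the controls. The groups were far apart, at a ratio of means of 0.350 (log2 fold change -1.44, SE 0.078, adjusted p = 0.000434 by limma). Leaving out any single library kept the call, and over all 12 alternatives the log2 fold change ran from -1.54 to -1.35. The call was lost in 1 of them, with no filter on low values (adjusted p = 0.0520), a setting in which 1 of 26758 genes passed.

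TP53I3 (ENSG00000115129), a quinone oxidoreductase also known as PIG3, was the second gene that fell. It had 33.59 and 32.46 FPKM in the GMI libraries, against 45.54 and 42.28 FPKM in the controls. The groups did not overlap, and the gene changed by -0.40 on the log2 scale (SE 0.064, adjusted p = 0.0101 by limma). That call needed both controls: without control replicate 1 the adjusted p was 0.140 and without control replicate 2 it was 0.10002, with log2 fold changes of -0.35 and -0.45. It was also lost with no filter on low values (0.0916).

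SESN1, ZMAT3 and RRM2B each lay lower in both GMI libraries and did not pass. SESN1, a sestrin that restrains mTORC1, had 3.30 and 3.10 FPKM in the GMI libraries, against 3.78 and 3.84 FPKM in the controls (log2 fold change -0.20, 95% interval -0.39 to -0.001, limma adjusted p = 0.153). RRM2B, the p53-inducible small subunit of ribonucleotide reductase that supplies nucleotides outside S phase, had 7.81 and 8.71 FPKM in the GMI libraries, against 9.02 and 10.06 FPKM in the controls (-0.19, -0.39 to 0.02, limma adjusted p = 0.191). ZMAT3, a zinc finger protein that binds RNA and acts on splicing, had 4.53 and 4.91 FPKM in the GMI libraries, against 5.30 and 5.48 FPKM in the controls (-0.16, -0.35 to 0.03, limma adjusted p = 0.215). The lower bounds of the 3 intervals lie between -0.39 and -0.35, so larger falls lay outside them.

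TP53INP1, a nuclear protein that promotes p53 phosphorylation and also acts in autophagy, was the one gene of the set with both GMI libraries above both controls. It had 1.51 and 1.95 FPKM in the GMI libraries, against 1.12 and 1.21 FPKM in the controls. The GMI replicates lay farther apart than the nearest values of the 2 groups, and the log2 fold change of 0.33 did not pass (95% interval 0.05 to 0.61, limma adjusted p = 0.106). The values rest on roughly 131 to 231 fragments per library, and the voom fit called the gene higher (adjusted p = 0.0274).

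**Figure D3:**
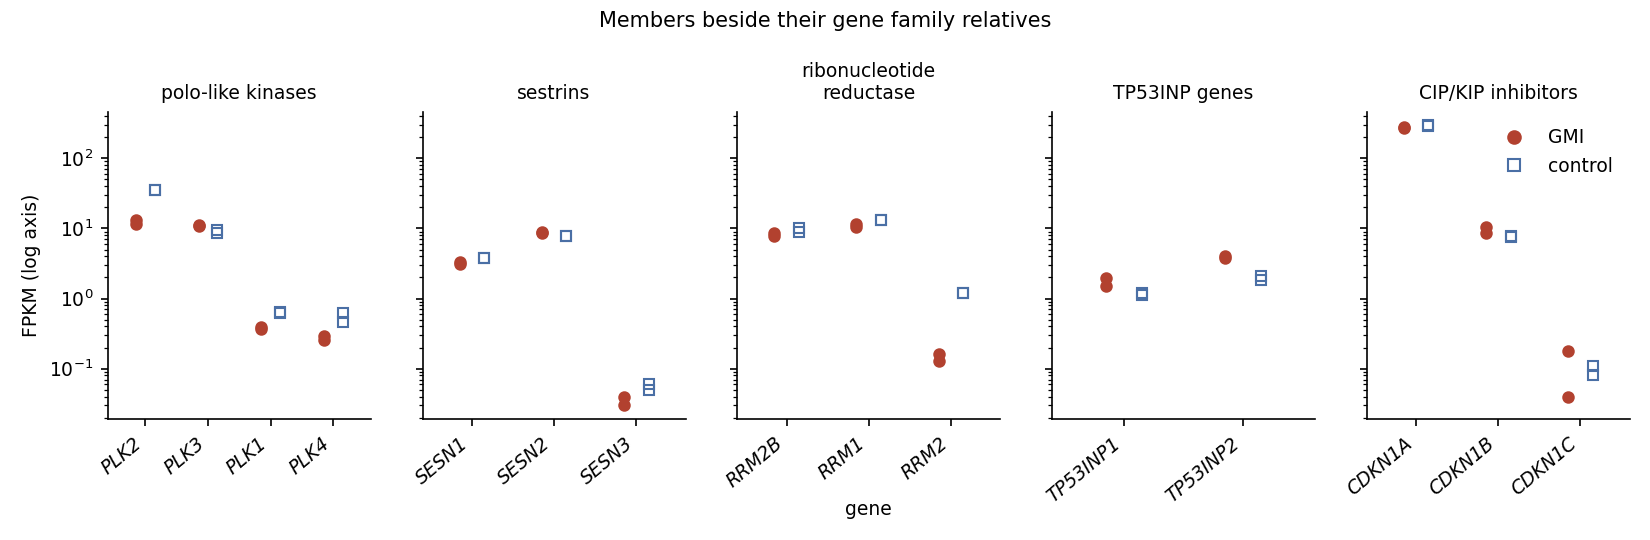
FPKM on a log axis for PLK2, SESN1, RRM2B, TP53INP1 and CDKN1A beside relatives of each in the same family, with GMI libraries as filled circles left of control libraries as open squares. PLK2 lies lower after GMI while PLK3 lies slightly higher, and RRM2 is at 0.16 FPKM or less after GMI against 1.21 FPKM in both controls.

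Relatives of these genes did not all take the same course. PLK3, another stress-responsive polo-like kinase, had 11.20 and 10.65 FPKM in the GMI libraries, against 9.39 and 8.67 FPKM in the controls (log2 fold change 0.25, limma adjusted p = 0.0659), and lay just below PLK2 in the GMI libraries. The mitotic kinase PLK1 and the centriole kinase PLK4 stayed below the filter in all libraries. Of the ribonucleotide reductase subunits, the S-phase subunit RRM2 fell to 0.13 and 0.16 FPKM in the GMI libraries, against 1.21 FPKM in both controls (-0.95, limma adjusted p = 0.00408), and passed the filter through the controls alone. The large subunit RRM1 had 10.37 and 11.56 FPKM, against 13.29 and 13.08 FPKM in the controls (-0.25, adjusted p = 0.0714).

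TP53INP2, a relative of TP53INP1 that acts in autophagosome formation, rose to 3.83 and 4.05 FPKM in the GMI libraries, against 1.82 and 2.07 FPKM in the controls (log2 fold change 0.75, limma adjusted p = 0.00419). SESN2, the sestrin driven also by ATF4, had 8.93 and 8.68 FPKM in the GMI libraries, against 7.73 and 7.90 FPKM in the controls (0.15, adjusted p = 0.179). VAT1, of the same oxidoreductase superfamily as TP53I3, rose (0.51, limma adjusted p = 0.00247). CRYZ, also listed as a relative of TP53I3, lay lower in both GMI libraries and did not pass. It had 23.01 and 24.50 FPKM there, against 26.75 and 26.32 FPKM in the controls (-0.15, limma adjusted p = 0.148). CDKN1B, which encodes p27, had 8.62 and 10.51 FPKM in the GMI libraries, against 7.59 and 7.71 FPKM in the controls (0.28, adjusted p = 0.0994). The calls of RRM2, TP53INP2 and VAT1 held without either GMI library and were lost without either control.

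Of 30 listed regulators of p53 and MDM2 protein, 26 were tested, of which 1 fell and 0 rose, against 6.12% and 9.30% of all tested genes. At an unadjusted limma p under 0.05, 4 were lower and 0 higher, against 15.0% and 17.2% of all tested genes. The log2 fold changes of the 26 had a median of -0.05 and ran from -0.36 to 0.17, with 16 negative and 10 positive. Both GMI libraries lay below both controls in 11 of the 26 and above them in 4, against 30.4% and 29.8% of all tested genes. The 4 were ATM, UBE4B, TP53BP2 and KAT5 (0.17, 0.15, 0.11 and 0.09), none of them called. ATM passed the filter through the GMI libraries alone. USP10, a deubiquitinase that stabilises p53, fell to 14.90 and 14.48 FPKM in the GMI libraries, against 18.48 and 19.91 FPKM in the controls (-0.36, limma adjusted p = 0.0168). USP7, a deubiquitinase of both MDM2 and p53, had 10.89 and 11.21 FPKM in the GMI libraries, against 12.75 and 13.18 FPKM in the controls (-0.21, adjusted p = 0.0742). PPM1D, the phosphatase that switches off p53 signalling and is induced by it, had 1.84 and 2.14 FPKM, against 2.26 and 2.27 FPKM in the controls (-0.13, adjusted p = 0.412). The kinase gene CHEK2 and the ribosomal protein genes RPL5 and RPL11, whose products bind MDM2, did not pass (limma adjusted p = 0.219, 0.658 and 0.879). RPL23 and NPM1 lay lower in both GMI libraries and did not pass either (-0.16 and -0.20, limma adjusted p = 0.105 and 0.106). With USP10 and USP7 they are the 4 that were lower at an unadjusted limma p under 0.05. The USP10 call was lost when either control was left out (adjusted p = 0.117 and 0.194) and without GMI replicate 2 (0.0604).

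Other genes that p53 is known to activate split in both directions. In 4 lists with 81 genes, 73 were tested, of which 13 rose, 11 fell and 49 were not called. Of all tested genes 9.30% rose and 6.12% fell, shares against which the counts of the single lists below can be read too. Their median log2 fold change was -0.06, against -0.01 over all tested genes. Without control replicate 1 only 2 rose and 1 fell, and without control replicate 2 only 2 rose and 0 fell. Without GMI replicate 1 the counts were 9 and 7, and without GMI replicate 2 they were 11 and 4. Over all genes the number past the threshold dropped likewise, to 74 and 45 of 11598 without control replicate 1 or 2, against 1789 with all libraries.

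**Figure D4:**
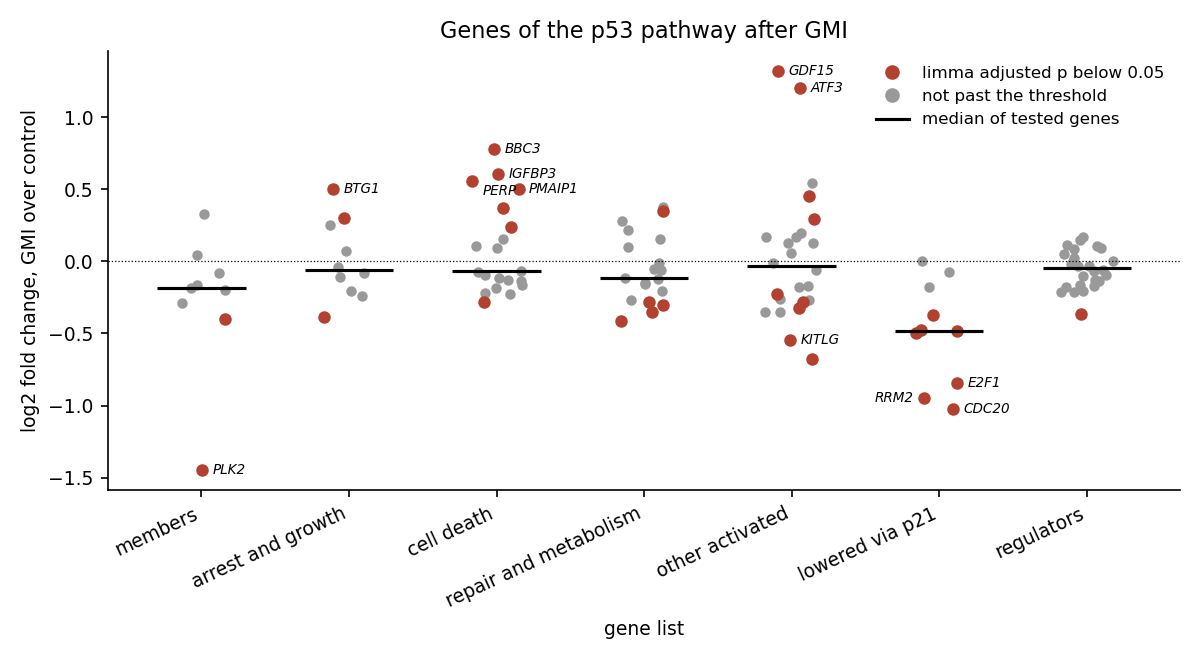
Log2 fold change, GMI over control, of each tested gene by list, with red points past an adjusted p of 0.05 in limma, grey points not past it and bars at list medians. Medians of the activated lists lie between -0.11 and -0.03 with genes called on both sides, and of the 10 tested genes lowered through p21, 7 are called down and 0 up, 4 of them having passed the filter through the controls alone.

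Cell death genes supplied the largest number that rose. Of 20 tested, 6 rose and 1 fell, around a median log2 fold change of -0.07. BBC3, which encodes the BH3-only protein PUMA, rose to 23.85 and 24.11 FPKM in the GMI libraries, against 13.42 and 13.73 FPKM in the controls (0.78, limma adjusted p = 0.00112). PERP, a desmosomal membrane protein, rose to 148 and 167 FPKM, against 105 and 108 FPKM in the controls (0.56, adjusted p = 0.00509), and PHLDA3, an inhibitor of AKT, rose to 227 and 230.4 FPKM, against 179.6 and 174 FPKM (0.37, adjusted p = 0.00774). IGFBP3, a binding protein of insulin-like growth factors, rose as well (0.61). PMAIP1, which encodes NOXA, and the pore-forming BAX complete the 6 that rose and were named after their values were seen (0.50 and 0.24). NINJ1, a membrane rupture protein named in the same way, fell (-0.28). Death receptor genes, also named outside the naming rule, were not called and differed in sign. FAS at -0.18 and TNFRSF10B at -0.07 had both GMI libraries below both controls, and TNFRSF10A at 0.16 had both above. The other TNFRSF10 genes listed were not called either. TNFRSF10D was at -0.10 with both GMI libraries below both controls, and TNFRSF10C at -0.06 with overlapping groups. Without either control 0 of these genes passed, and without GMI replicate 1 or 2 it was 5 up in each fit with 1 and 0 down.

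Arrest genes other than CDKN1A and PLK2 were mixed, with 2 of 10 up, 1 down and 7 not past the threshold (median -0.06). BTG1, an antiproliferative factor, rose to 48.31 and 48.87 FPKM in the GMI libraries, against 32.99 and 35.09 FPKM in the controls (0.50, limma adjusted p = 0.00404). SFN, the 14-3-3 sigma protein that holds cyclin B in the cytoplasm, rose to 303 and 337 FPKM, against 254 and 264 FPKM (0.30, adjusted p = 0.0316). GADD45A, a stress sensor that binds CDK1 and PCNA, fell to 27.37 and 29.37 FPKM, against 37.65 and 37.03 FPKM (-0.39, adjusted p = 0.0107). IER5 had 91.8 and 107 FPKM in the GMI libraries, against 116 and 113 FPKM in the controls, and did not pass (adjusted p = 0.137). All 3 calls were lost without either control, and that of SFN also without GMI replicate 2 (limma adjusted p = 0.0869), with quantile normalization (0.0615) and with no mean-variance trend (0.0716). Without GMI replicate 2, 1 gene of this list rose and 2 fell.

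Repair and metabolism genes, the group of RRM2B, SESN1 and TP53I3, had 1 of 19 up, 4 down and 14 not past the threshold (median -0.11). GPX1, a glutathione peroxidase, fell to 167 and 164 FPKM in the GMI libraries, against 222 and 201 FPKM in the controls (-0.35, limma adjusted p = 0.0167). POLH, the translesion polymerase eta, fell to 2.48 and 2.44 FPKM, against 3.50 and 3.71 FPKM (-0.41, adjusted p = 0.0224). C12orf5, now TIGAR, a fructose bisphosphatase that slows glycolysis, fell to 25.55 and 26.66 FPKM, against 31.11 and 32.72 FPKM (-0.28, adjusted p = 0.0296). The autophagy kinase gene ULK1 rose (0.35, adjusted p = 0.0395), and PCNA, the sliding clamp, had 127 and 133 FPKM in the GMI libraries, against 144 and 146 FPKM in the controls (-0.16, adjusted p = 0.106). All calls of this list were lost without either control, and none held in both fits without a GMI library. Those of POLH and C12orf5 were lost whichever library was left out. In these fits POLH ran from -0.44 to -0.38, C12orf5 from -0.32 to -0.24, GPX1 from -0.42 to -0.28 and ULK1 from 0.25 to 0.46.

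Among the remaining activated targets, 4 of 24 rose, 5 fell and 15 did not pass the threshold (median -0.03). GDF15, a stress cytokine, had 207 and 222 FPKM in the GMI libraries, against 88.9 and 81.3 FPKM in the controls (1.32). ATF3, a stress-induced transcription factor, rose to 7.37 and 8.10 FPKM, against 2.64 and 2.96 FPKM (1.20). KITLG, the ligand of KIT, fell to 2.63 and 2.60 FPKM, against 4.15 and 4.41 FPKM (-0.55, limma adjusted p = 0.00847). GDF15 and ATF3 kept their calls without any 1 library, while KITLG lost its call without either control.

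Genes lowered by p53 through p21 and the DREAM repressor complex stood low in these cultures. Of 24 listed, 14 lay below the filter, and both GMI libraries were below both controls in 21 of the 24, below-filter genes included, against 26.2% of the 18400 genes that, like these 24, were above 0 FPKM in all 4 libraries. Of the 10 tested, 7 fell and 0 rose, but CDC20, TOP2A, KIF23 and RRM2 passed the filter through the controls alone, so the count says nothing of the list as a whole. E2F1, the transcription factor of S-phase entry, fell to 1.97 and 1.95 FPKM in the GMI libraries, against 4.02 and 4.63 FPKM in the controls (-0.85, limma adjusted p = 0.00312). CCNB1, cyclin B, had 7.15 and 7.13 FPKM, against 7.68 and 8.75 FPKM (-0.18, adjusted p = 0.194). The called genes of this list were lower in libraries whose CDKN1A level was not called different, and the part of p21 in them was not tested. Without either control 0 of them passed, and without each GMI library 3 fell.

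For each of the 9 genes, the tested protein-coding genes nearest in pattern were found from log2(FPKM + 1), centred on each gene's mean over the 4 libraries. Nearest to PLK2 were CYP24A1, CPLX2 and KRT6A, at root mean square distances of 0.056, 0.067 and 0.070 on the log2 scale. CYP24A1, the vitamin D 24-hydroxylase, had 30.23 and 28.66 FPKM in the GMI libraries, against 77.77 and 83.25 FPKM in the controls. Nearest to TP53I3 were FBLIM1, CHCHD4 and CCDC86, at 0.020 to 0.022. Nearest to MDM2 were AP003419.11, TRIP13 and ANKEF1, at 0.0078 to 0.013, all with replicate 2 above replicate 1 in both groups. Over 4 libraries, a gene with a small change can have many such neighbours, and their number was not counted.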

How the data were processed

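RNA of A549 cells was measured in 2 GMI and 2 control libraries, grouped and numbered by the labels. The labels do not say whether replicates were separate cultures, and p-values therefore reflect only how these samples varied, possibly for technical reasons. The authors deposited FPKM per Ensembl gene to 2 decimals. The submitters' processing notes name HISAT2 2.0.1, HTSeq 0.6.1, cutadapt 1.9.1 and bcl2fastq 2.17.1.14, and the build GRCh37. The strand setting, gene lengths and annotation release were not given in the sources used here, so reads of a gene and of an antisense or overlapping neighbour may be mixed.

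Genes with at least 1 FPKM in at least 2 libraries were tested with limma 3.58.1 in R 4.3.3 on log2(FPKM + 1), with a mean-variance trend, no covariates and Benjamini-Hochberg adjustment over 11598 genes. Fold changes are GMI over control on that scale, which understates changes of low genes. The procedure was run on simulated data with independent normal noise drawn from the fit's own variance estimates. Such data share the assumptions of the fit and cannot show how well it suits these libraries. Approximate fragments are FPKM times GENCODE 29 exon length times a library denominator, the value at which 95.8% to 96.8% of FPKM in genes up to 200 nt and below 20 FPKM were whole fragments (within 0.006 FPKM), against 2.8% to 3.2% by chance. Tables were made with Python 3.11.15 and pandas 2.3.3.

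The members were taken by symbol and not by a rule on these values, but they and the lists were chosen with earlier results known. Their counts beside all genes are therefore descriptions. Named were all 9 members and some of the regulators and family relatives. From each other list up to 4 called genes with the smallest adjusted p and the 2 most abundant were named. Some further cell death genes, and TOP2A, were named outside this rule. For each member the 3 nearest patterns were found. The p53 gene itself was not analysed here. One gene that the rule names, counted in its list, is not reported here.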

Additional observations from a re-analysis of the deposited data

How the results depend on the processing

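The fall of PLK2 and TP53I3, 2 of the 9 genes, was called with a pseudocount of 0.1, a mean FPKM of at least 5, median-ratio rescaling, quantile normalization and no mean-variance trend. With no filter on low values 0 of the 9, 0 genes of the 6 pathway lists and 1 of 26758 genes passed (the cause was not tested). In the fit as reported, 32 of the 108 tested genes of these lists passed. Leaving out 1 library gave 1 to 2 of the 9, 2 to 20 of the 108 and 45 to 1369 of all genes, lowest without a control. In these fits the lone library is assumed to vary like the other group. The voom fit on approximate fragments, chosen after seeing the data, called 4 of the 9, adding MDM2 and TP53INP1, and 2553 of 11311 genes. Its cause was not tested. With the replicate number as a block, MDM2 was called too (adjusted p = 0.0366), making 3 of the 9, and 2000 genes passed. Nothing shows that the numbers pair the libraries: deviations of same-numbered libraries correlated at -0.044 across genes. None of the 36 called genes of the members, lists and relatives changed sign under any alternative run. MDM4, not called, changed sign without control replicate 1 (-0.04) and without GMI replicate 2 (-0.01). The median over all genes moved by less than 0.1 on the log2 scale under every alternative.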
